A study of Mus musculus with 8 samples.

Results

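The genes described here are the components of cell division that the study's expression table lists: mitotic and other kinesins, centromere and kinetochore proteins, Aurora and Polo kinases, mitotic cyclins, condensin subunits, topoisomerase II alpha, spindle and cytokinesis factors, and Mki67. They were picked by gene symbol, with earlier results of these data known, and 48 of the 5457 listed genes matched. By role they fall into 7 mitotic kinesins, 9 other kinesins that serve transport, the cilium or signalling, 10 centromere proteins, 4 outer kinetochore and checkpoint proteins, 3 mitotic kinases, 4 cyclins and Cdc20, 5 chromosome-structure proteins, 5 spindle and cytokinesis factors, and Mki67. The 39 genes outside the other kinesins are called the mitotic genes below.

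RNA was sequenced from cells sorted for the red protein tdTomato out of hind limb muscle of adult C57BL/6 mice. The mice had the genotype Pax7-CreERT2/+;R26-tdTO+ or Tw2-CreERT2/+;R26-tdTO+, so that Cre, driven from Pax7 or Twist2 and active after tamoxifen, marked the cells, and all groups had 3 tamoxifen treatments 10 days before harvest. Pax7 encodes the transcription factor of satellite cells, the stem cells of muscle fibres, and Twist2 a basic helix-loop-helix factor of mesenchymal cells. The sorted cells were cultured on matrigel in Ham's F10 with 20% fetal bovine serum, and a differentiation medium held 2% horse serum and bFGF.

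The 8 libraries form 4 groups of 2. Pax7_GM and Tw2_GM were titled GM, taken here as growth medium, and Pax7_48 and Tw2_48 were titled 48. The Tw2 titles give 48 in hours, while the labels state neither the unit for Pax7 nor the medium of the 48 cultures. The labels also do not say whether the 2 libraries of a group came from separate mice or cultures, so the p-values measure only the spread between these libraries. The levels are reads of a gene per 1 M reads of its library (CPM), and the deposited group means were taken apart into their 2 libraries, called deeper and shallower after their implied sizes of 5.18 to 13.7 M reads. Pairs of values below give the deeper library first.

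Cells that divide build a bipolar spindle of microtubules, attach each chromosome to it through a kinetochore assembled on the centromere, and separate the chromatids once the checkpoint is satisfied. Many of the genes involved are transcribed in a wave that peaks in late G2 and mitosis, driven by B-Myb, FoxM1 and NF-Y and shut off in non-dividing cells by the DREAM complex, which acts through a promoter element called the cell cycle genes homology region (CHR). Satellite cells that are activated divide as myoblasts, and their progeny leave the cell cycle for good before they fuse into myotubes.

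Promoter windows were read because DREAM and NF-Y are known to act on this class of gene through the CHR and the CCAAT box. RefSeq windows from 250 bases before to 50 bases after the annotated start (GRCm38.p6) were matched for 40 of the 48 genes. The searched letters, on both strands, were CCAAT for the CCAAT box, TTTGAA or TTCGAA for the CHR, and TTTGGCGC, TTTCCCGC, TTTCGCGC or TTTGCCGC for the E2F site, none of which contains another. The windows below are those of the mitotic kinases, cyclins and Cdc20 that held both the CCAAT box and the CHR, and the capitals mark these motifs.
Plk1, chr7:122159185-122159484, plus strand: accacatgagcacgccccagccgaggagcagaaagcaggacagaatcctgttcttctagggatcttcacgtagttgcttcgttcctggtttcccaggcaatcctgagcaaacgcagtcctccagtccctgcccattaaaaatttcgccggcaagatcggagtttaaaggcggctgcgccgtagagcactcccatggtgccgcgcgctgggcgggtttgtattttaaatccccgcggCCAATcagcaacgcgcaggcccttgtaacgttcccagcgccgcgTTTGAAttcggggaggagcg
Aurka, chr2:172370521-172370820, minus strand: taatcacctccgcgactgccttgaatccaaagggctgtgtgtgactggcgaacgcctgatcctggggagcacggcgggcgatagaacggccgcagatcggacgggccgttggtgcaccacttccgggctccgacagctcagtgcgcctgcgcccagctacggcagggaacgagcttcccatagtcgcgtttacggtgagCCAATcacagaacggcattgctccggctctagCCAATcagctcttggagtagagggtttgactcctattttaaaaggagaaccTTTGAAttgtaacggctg
Cdc20, chr4:118437294-118437593, minus strand: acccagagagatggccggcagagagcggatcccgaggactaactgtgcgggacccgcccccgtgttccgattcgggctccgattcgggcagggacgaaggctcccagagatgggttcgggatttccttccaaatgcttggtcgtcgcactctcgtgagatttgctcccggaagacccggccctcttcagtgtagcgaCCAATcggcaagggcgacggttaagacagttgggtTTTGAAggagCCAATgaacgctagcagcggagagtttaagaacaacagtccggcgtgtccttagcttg
Ccnb2, chr9:70421505-70421804, minus strand: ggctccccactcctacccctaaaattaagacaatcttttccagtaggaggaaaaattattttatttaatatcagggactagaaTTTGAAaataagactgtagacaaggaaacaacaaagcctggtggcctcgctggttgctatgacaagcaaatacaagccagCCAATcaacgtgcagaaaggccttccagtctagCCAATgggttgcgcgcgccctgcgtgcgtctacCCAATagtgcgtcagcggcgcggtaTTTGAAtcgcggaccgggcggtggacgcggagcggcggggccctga

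In the Plk1 window the CCAAT box began at position -14 from the start and the CHR at 30. The Aurka window held CCAAT boxes at -51 and -19 and a CHR at 32. The Cdc20 window held CCAAT boxes at -53 and -8 with a CHR at -18 between them. The Ccnb2 window held CCAAT boxes at -87, -54 and -21, evenly spaced upstream of a CHR at 4, and a further CHR at -167.

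A CCAAT box and a CHR stood in the same window for 20 of the 33 mitotic genes matched (60.6%), which include Mki67, Top2a, Bub1b, Cenpa, Kif23, Ect2, Prc1 and Racgap1. The same pair was present in 1 of 7 other kinesins (14.3%), Kif26b, and in 8.61% of all 27025 genes of the promoter table. Among the 1672 other listed genes that were lower at 48 in both lineages it was present in 8.19%. The CCAAT box alone was in 72.7% of the mitotic genes against 41.1% of all genes, and the CHR in 69.7% against 21.7%. The E2F site was in 6.06% of the mitotic genes (2 genes) against 2.61% of all genes. Among the other listed genes lower at 48 in both lineages, the shares were 44.0% for the CCAAT box, 17.7% for the CHR and 7.78% for the E2F site. These are matches of letters and were not tested as sites.

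**Figure D1:**
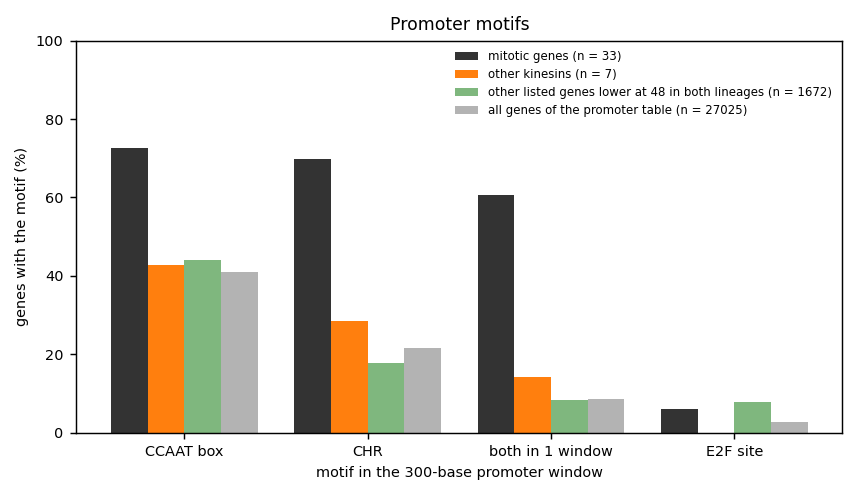
Share of genes (y axis, percent) whose promoter window of 300 bases held each motif (x axis), for the mitotic genes, the other kinesins, the other listed genes lower at 48 in both lineages, and all genes of the RefSeq table. The pair of CCAAT box and CHR was in 60.6% of the mitotic genes and in 8.61% of all genes.

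From growth medium to 48, every mitotic gene fell in both lineages. The summed level of the 39 genes was 5837 and 5238 CPM in the Tw2_GM libraries and 243 and 239.6 CPM in the Tw2_48 libraries, a 22.9-fold drop of the group mean. The Pax7_GM libraries held 2700 and 2919 CPM and the Pax7_48 libraries 204 and 193 CPM, a 14.2-fold drop. All 39 were called lower in Pax7 and all 39 in Tw2 (limma on log2(CPM + 1), Benjamini-Hochberg adjusted p under 0.05), with median log2 changes of -3.90 and -5.19. With the other kinesins included, 41 of the 48 genes were lower and 7 higher in Pax7, against 40.5% lower and 38.8% higher among all genes tested. In Tw2, 40 were lower and 5 higher, against 48.9% lower and 35.3% higher among all genes tested. The median over all tested genes was 0.01 in Pax7 and -0.49 in Tw2.

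The table itself bears on these counts. It lists genes with an absolute log2 fold change of at least 1 against Tw2_GM in the authors' means and, in the libraries solved, 10 CPM or above for 4 or more of the 8. The CPM minimum was met in all 4 growth medium libraries and in no 48 library by 32 of the 48 genes, so that these could be listed only through the group where they were high. In bulk RNA, fewer dividing cells and less RNA of these genes per cell cannot be told apart.

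**Figure D2:**
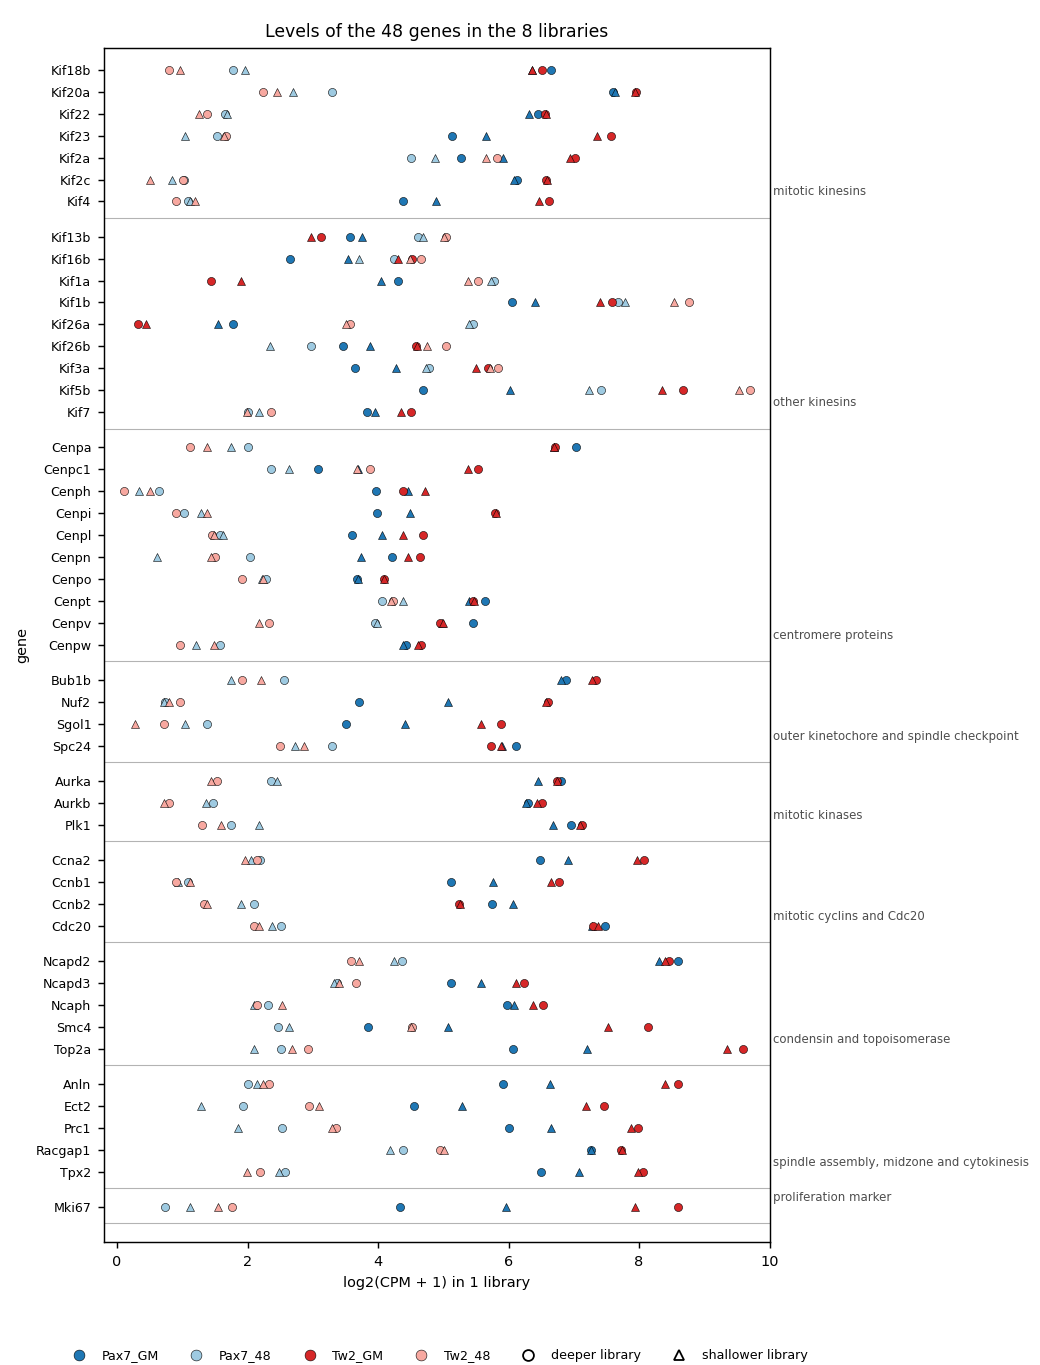
Level of each of the 48 genes (rows, by role) in each of the 8 libraries, as log2(CPM + 1) on the x axis; colours give the group and the marker shape the deeper or shallower library. The mitotic genes have their growth medium points to the right of their 48 points in both lineages, and most of the other kinesins do not.

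The mitotic kinases fell to a few percent of their growth medium level. Aurkb, the kinase of the chromosomal passenger complex that corrects kinetochore attachments, stood at 90.7 and 85.9 CPM for Tw2_GM, 77.6 and 75.8 for Pax7_GM, 0.728 and 0.639 for Tw2_48 and 1.79 and 1.57 for Pax7_48. Each 48 library was below every growth medium library, and the log2 change at 48 was -4.86 ± 0.12 in Pax7 (adjusted p = 1.98e-07) and -5.73 ± 0.12 in Tw2 (adjusted p = 1.45e-08). Plk1, which drives mitotic entry, spindle assembly and cytokinesis, stood at 138 and 136 CPM for Tw2_GM, 123 and 102 for Pax7_GM, 1.46 and 2.02 for Tw2_48 and 2.35 and 3.54 for Pax7_48. The growth medium and 48 libraries did not overlap, and the log2 change at 48 was -4.86 ± 0.19 in Pax7 (adjusted p = 2.45e-07) and -5.66 ± 0.19 in Tw2 (adjusted p = 4.12e-08). Aurka, the spindle pole kinase, changed by -4.22 ± 0.15 and -5.26 ± 0.15 on the same scale, so that 4.35% in Pax7 and 1.7% in Tw2 of its mean CPM was left.

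The 3 cyclins and Cdc20 fell in both lineages. Ccnb1 encodes cyclin B1, the partner of Cdk1 at mitotic entry, and stood at 108 and 99.4 CPM for Tw2_GM, 33.6 and 53.4 for Pax7_GM, 0.874 and 1.17 for Tw2_48 and 1.13 and 0.917 for Pax7_48. Both 48 groups lay near 1 CPM, below all growth medium libraries, and the log2 change at 48 was -4.43 ± 0.21 in Pax7 (adjusted p = 4.89e-07) and -5.7 ± 0.21 in Tw2 (adjusted p = 6.74e-08). Ccna2, cyclin A2 of S phase and G2, stood at 268 and 249 CPM for Tw2_GM, 88.7 and 119 for Pax7_GM, 3.42 and 2.87 for Tw2_48 and 3.57 and 3.14 for Pax7_48. Its levels did not overlap between growth medium and 48, and the log2 change at 48 was -4.58 ± 0.17 in Pax7 (adjusted p = 2.25e-07) and -5.97 ± 0.17 in Tw2 (adjusted p = 2.24e-08). Cdc20, the activator of the anaphase-promoting complex, changed by -4.94 ± 0.13 in Pax7 and -5.19 ± 0.13 in Tw2. Ccnb2, another B-type cyclin, changed by -3.9 ± 0.15 and -3.89 ± 0.15.

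Of the 7 mitotic kinesins, 6 were left at under 5% of their growth medium level in both lineages. Kif2c, the centromeric microtubule depolymerase known as MCAK, stood at 94.6 and 95.6 CPM for Tw2_GM, 69 and 66.6 for Pax7_GM, 1.02 and 0.426 for Tw2_48 and 1.03 and 0.786 for Pax7_48. It kept 1.34% in Pax7 and 0.76% in Tw2 of its mean CPM, and the log2 change at 48 was -5.17 ± 0.18 in Pax7 (adjusted p = 1.98e-07) and -5.82 ± 0.18 in Tw2 (adjusted p = 3.03e-08). Kif23, the motor of the centralspindlin complex at the midzone, stood at 189 and 162 CPM for Tw2_GM, 34 and 49.2 for Pax7_GM, 2.18 and 2.13 for Tw2_48 and 1.88 and 1.05 for Pax7_48. All of its 48 libraries were far below growth medium, and the log2 change at 48 was -4.11 ± 0.22 in Pax7 (adjusted p = 8.24e-07) and -5.8 ± 0.22 in Tw2 (adjusted p = 7.29e-08). Kif4, a chromosome-bound kinesin that also works with Prc1 at the midzone, stood at 97.3 and 87.3 CPM for Tw2_GM, 19.9 and 28.7 for Pax7_GM, 0.874 and 1.28 for Tw2_48 and 1.13 and 1.18 for Pax7_48. Its 48 libraries lay near 1 CPM in both lineages, and the log2 change at 48 was -3.53 ± 0.19 in Pax7 (adjusted p = 8.34e-07) and -5.5 ± 0.19 in Tw2 (adjusted p = 4.81e-08). Kif18b, Kif20a and Kif22, which act on astral microtubule tips, at the midzone and on chromosome arms, kept between 0.982% and 3.67% of their growth medium CPM across both lineages. Kif2a, a depolymerase with roles outside mitosis as well, kept 51.4% in Pax7 and 41.8% in Tw2, with log2 changes of -0.91 ± 0.22 and -1.24 ± 0.22.

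The 10 centromere proteins kept from 2.31 to 48.3% of their growth medium CPM in Pax7 and from 1.1 to 41.0% in Tw2. Cenpa, the histone H3 variant that marks the centromere, stood at 104 and 102 CPM for Tw2_GM, 129.7 and 103 for Pax7_GM, 1.17 and 1.6 for Tw2_48 and 3.01 and 2.36 for Pax7_48. Its 48 libraries lay between 1 and 4 CPM, and the log2 change at 48 was -4.99 ± 0.17 in Pax7 (adjusted p = 1.98e-07) and -5.46 ± 0.17 in Tw2 (adjusted p = 3.24e-08). Cenpi, a subunit of the constitutive centromere network, stood at 54.4 and 54.8 CPM for Tw2_GM, 14.9 and 21.4 for Pax7_GM, 0.874 and 1.6 for Tw2_48 and 1.03 and 1.44 for Pax7_48. The 48 libraries of both lineages overlapped each other far below growth medium, and the log2 change at 48 was -3.08 ± 0.22 in Pax7 (adjusted p = 3.39e-06) and -4.66 ± 0.22 in Tw2 (adjusted p = 2.14e-07). Cenpc1 encodes CENP-C, which links Cenpa nucleosomes to the kinetochore, and stood at 45.3 and 40.5 CPM for Tw2_GM, 7.45 and 12 for Pax7_GM, 13.8 and 11.8 for Tw2_48 and 4.13 and 5.24 for Pax7_48. The Tw2_48 libraries lay on either side of the shallower Pax7_GM library, and the log2 change at 48 was -0.89 ± 0.22 in Pax7 (adjusted p = 0.00492) and -1.67 ± 0.22 in Tw2 (adjusted p = 0.000104). Cenpt, which also carries the outer kinetochore, had 48 libraries between 15.6 and 19.9 CPM in both lineages and changed by -1.3 ± 0.16 and -1.24 ± 0.16. Cenpc1 and Cenpt thus kept a larger share than Cenpa: 48.3% in Pax7 and 29.8% in Tw2 for Cenpc1, 39.4% in Pax7 and 41% in Tw2 for Cenpt, and 2.31% in Pax7 and 1.34% in Tw2 for Cenpa.

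Outer kinetochore and checkpoint genes fell in both lineages. Bub1b, the checkpoint protein BubR1, stood at 161 and 155 CPM for Tw2_GM, 117 and 111 for Pax7_GM, 2.77 and 3.62 for Tw2_48 and 4.89 and 2.36 for Pax7_48. The 48 libraries lay between 2 and 5 CPM, and the log2 change at 48 was -4.69 ± 0.25 in Pax7 (adjusted p = 7.37e-07) and -5.25 ± 0.25 in Tw2 (adjusted p = 2.2e-07). Nuf2, a subunit of the Ndc80 complex that binds microtubules, stood at 96.4 and 94.5 CPM for Tw2_GM, 12.1 and 32.6 for Pax7_GM, 0.947 and 0.745 for Tw2_48 and 0.658 and 0.655 for Pax7_48. Every 48 library was below 1 CPM while the growth medium libraries spread from the deeper Pax7_GM library upward, and the log2 change at 48 was -3.66 ± 0.36 in Pax7 (adjusted p = 2.56e-05) and -5.71 ± 0.36 in Tw2 (adjusted p = 1.33e-06). Sgol1, shugoshin, which protects cohesion at the centromere, stood at 57.7 and 46.6 CPM for Tw2_GM, 10.4 and 20.3 for Pax7_GM, 0.655 and 0.213 for Tw2_48 and 1.6 and 1.05 for Pax7_48. Its 48 libraries did not overlap between lineages, and the log2 change at 48 was -2.76 ± 0.30 in Pax7 (adjusted p = 4.48e-05) and -5.22 ± 0.30 in Tw2 (adjusted p = 7.14e-07). Spc24, another subunit of the Ndc80 complex, kept 11.4% in Pax7 and 9.92% in Tw2.

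The chromosome-structure genes kept unequal shares. Top2a, the topoisomerase that untangles sister chromatids, stood at 771 and 649 CPM for Tw2_GM, 65.8 and 146 for Pax7_GM, 6.63 and 5.43 for Tw2_48 and 4.7 and 3.27 for Pax7_48. Its growth medium libraries did not overlap between lineages and its 48 libraries lay between 3 and 7 CPM, and the log2 change at 48 was -4.33 ± 0.33 in Pax7 (adjusted p = 5.95e-06) and -6.66 ± 0.33 in Tw2 (adjusted p = 3.29e-07). Ncapd2, of condensin I, stood at 350.4 and 335 CPM for Tw2_GM, 387 and 315 for Pax7_GM, 11 and 12.1 for Tw2_48 and 19.7 and 17.9 for Pax7_48. Its growth medium libraries overlapped between lineages and all 48 libraries lay between 11 and 19.7 CPM, and the log2 change at 48 was -4.14 ± 0.15 in Pax7 (adjusted p = 2.1e-07) and -4.78 ± 0.15 in Tw2 (adjusted p = 3.03e-08). Smc4, the ATPase shared by condensins I and II, stood at 279.9 and 184 CPM for Tw2_GM, 13.4 and 32.6 for Pax7_GM, 21.9 and 21.6 for Tw2_48 and 4.51 and 5.24 for Pax7_48. The Tw2_48 libraries lay between the 2 Pax7_GM libraries, and the log2 change at 48 was -1.91 ± 0.36 in Pax7 (adjusted p = 0.00127) and -3.32 ± 0.36 in Tw2 (adjusted p = 3.77e-05). Ncapd3, of condensin II, kept 22.8% in Pax7 and 14.9% in Tw2, and Ncaph, of condensin I, kept 5.6% in Pax7 and 4.75% in Tw2.

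Genes of the spindle midzone and the contractile ring fell together. Anln, anillin, the scaffold of the contractile ring, stood at 386 and 338 CPM for Tw2_GM, 59.2 and 98.4 for Pax7_GM, 4 and 3.72 for Tw2_48 and 3.01 and 3.4 for Pax7_48. All 48 libraries lay near 3 or 4 CPM, and the log2 change at 48 was -4.2 ± 0.22 in Pax7 (adjusted p = 7.97e-07) and -6.22 ± 0.22 in Tw2 (adjusted p = 5.7e-08). Ect2, the exchange factor that activates RhoA at the division plane, stood at 175 and 144 CPM for Tw2_GM, 22.4 and 38 for Pax7_GM, 6.7 and 7.56 for Tw2_48 and 2.82 and 1.44 for Pax7_48. The Tw2_48 libraries were above the Pax7_48 libraries and both were below growth medium, and the log2 change at 48 was -3.31 ± 0.28 in Pax7 (adjusted p = 1.09e-05) and -4.3 ± 0.28 in Tw2 (adjusted p = 1.65e-06). Tpx2, which activates Aurka on the spindle, stood at 265 and 253 CPM for Tw2_GM, 89 and 134 for Pax7_GM, 3.57 and 2.98 for Tw2_48 and 4.98 and 4.58 for Pax7_48. No growth medium library came near its 48 levels, and the log2 change at 48 was -4.25 ± 0.20 in Pax7 (adjusted p = 3.93e-07) and -5.93 ± 0.20 in Tw2 (adjusted p = 3.95e-08). Racgap1, the partner of Kif23 in centralspindlin, kept 12.1% in Pax7 and 14.4% in Tw2, with log2 changes of -2.99 ± 0.13 and -2.76 ± 0.13. Prc1, which bundles midzone microtubules, kept 4.57% in Pax7 and 3.71% in Tw2.

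Mki67, the surface protein of mitotic chromosomes used as a marker of cycling cells, stood at 386 and 243 CPM for Tw2_GM, 19.1 and 61.5 for Pax7_GM, 2.4 and 1.92 for Tw2_48 and 0.658 and 1.18 for Pax7_48. The shallower Pax7_GM library was 3.22-fold above the deeper one, the 48 libraries were all under 3 CPM, and the log2 change at 48 was -4.22 ± 0.47 in Pax7 (adjusted p = 5.31e-05) and -6.61 ± 0.47 in Tw2 (adjusted p = 2.67e-06). The 2 Pax7_48 libraries held 7 and 9 Mki67 reads and the 2 Tw2_48 libraries 33 and 18.

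The median share of the growth medium CPM left at 48 was 4.57% over the 39 mitotic genes in Pax7, with a range of 1.34 to 51.4%, and 2.02% in Tw2, with a range of 0.686 to 41.8%. In Pax7 21 of the 39 were left at under 5%, and in Tw2 27. Kif2c was lowest in Pax7 and Mki67 in Tw2, while Kif2a was highest in both.

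**Figure D3:**
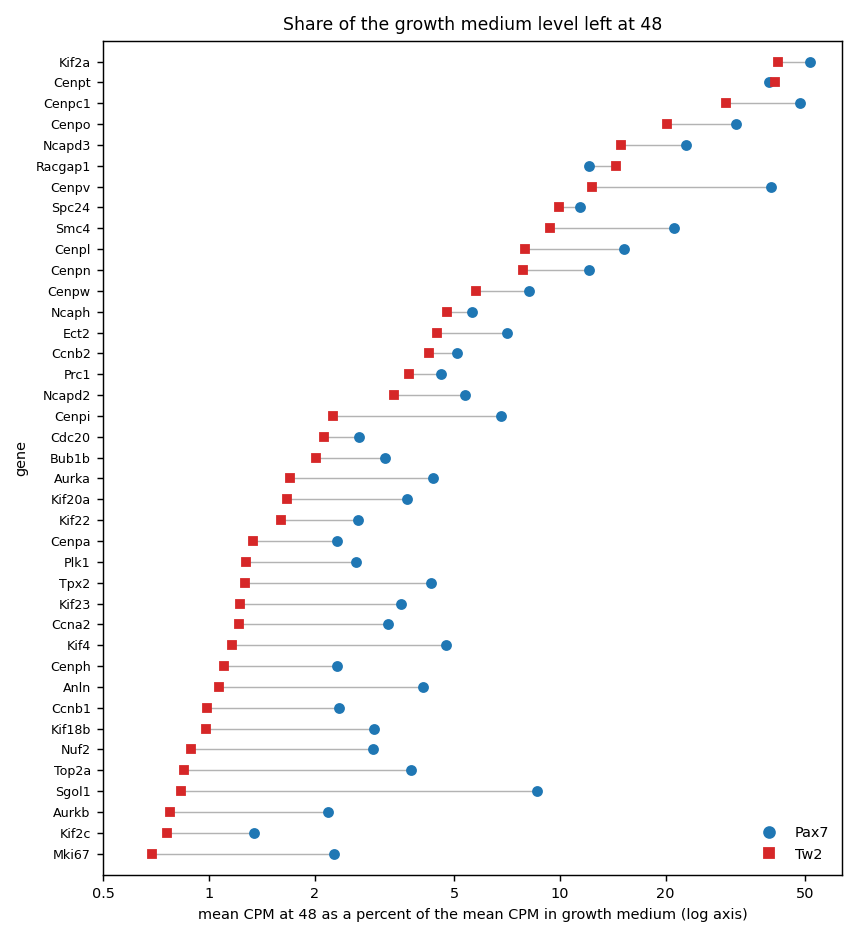
Mean CPM at 48 as a percent of the mean CPM in growth medium (x axis, log scale) for each of the 39 mitotic genes (rows), in Pax7 (circles) and Tw2 (squares). The Tw2 share lies left of the Pax7 share for all but Cenpt and Racgap1.

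**Figure D4:**
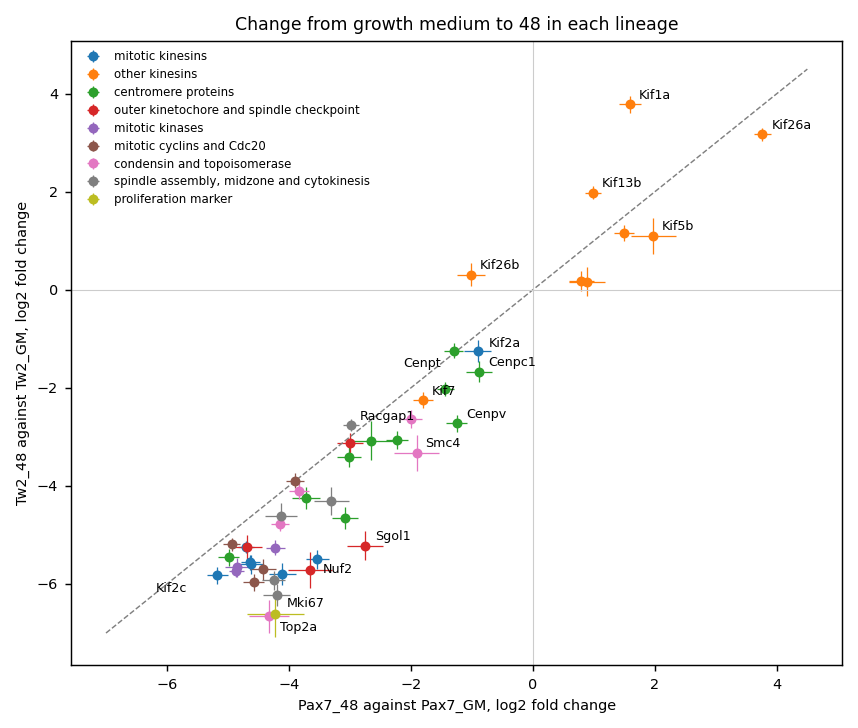
Log2 change from growth medium to 48 in Pax7 (x axis) and Tw2 (y axis) for the 48 genes, coloured by role, with bars for the standard error and a dashed line of equal change. The mitotic genes lie in the lower left, and 7 of the 9 other kinesins lie in the upper right.

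Most of the other kinesins went the opposite way. Their summed level went from 163 and 235 CPM to 549 and 532 CPM in Pax7, and from 725 and 608 CPM to 1469 and 1293 CPM in Tw2. Of the 9 genes, 7 were called higher and 2 lower in Pax7, and 5 higher and 1 lower in Tw2, against 38.8% higher and 40.5% lower among all genes tested in Pax7 and 35.3% and 48.9% in Tw2. With size factors, quantile normalization or removal of a trend on GC content and length, 7 were higher and 1 lower in Tw2. Kif1a, Kif26a, Kif13b, Kif5b and Kif1b rose in both lineages.

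Kif5b, the heavy chain of conventional kinesin, which in mouse myotubes is needed to position nuclei, stood at 407 and 325 CPM for Tw2_GM, 24.8 and 64.1 for Pax7_GM, 832 and 738 for Tw2_48 and 170.2 and 149.8 for Pax7_48. The groups did not overlap, the order from high to low being Tw2_48, Tw2_GM, Pax7_48 and Pax7_GM, and the log2 change at 48 was 1.97 ± 0.37 in Pax7 (adjusted p = 0.00114) and 1.11 ± 0.37 in Tw2 (adjusted p = 0.0208). The call in Tw2 was lost without either Tw2_48 library or without the shallower Tw2_GM library, with log2 changes of 0.95 to 1.19. Kif26a, an atypical kinesin that in mouse enteric neurons restrains Ret signalling, stood at 0.246 and 0.354 CPM for Tw2_GM, 2.44 and 1.93 for Pax7_GM, 10.9 and 10.4 for Tw2_48 and 42.9 and 41.2 for Pax7_48. Tw2_GM was at the edge of detection, where 3 reads come to 0.246 and 0.266 CPM, and the log2 change at 48 was 3.76 ± 0.13 in Pax7 (adjusted p = 2.16e-07) and 3.17 ± 0.13 in Tw2 (adjusted p = 1.27e-07). Kif1a, which carries synaptic vesicle precursors along axons, stood at 1.73 and 2.74 CPM for Tw2_GM, 18.8 and 15.4 for Pax7_GM, 45.1 and 40.8 for Tw2_48 and 54 and 52.4 for Pax7_48. It was lowest in Tw2_GM and did not overlap between growth medium and 48, and the log2 change at 48 was 1.59 ± 0.18 in Pax7 (adjusted p = 6.06e-05) and 3.78 ± 0.18 in Tw2 (adjusted p = 2.47e-07).

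Kif1b, a carrier of mitochondria and vesicles, rose by 1.5 ± 0.16 in Pax7 and 1.16 ± 0.16 in Tw2 on the log2 scale. Kif13b, a transport kinesin, rose by 0.99 ± 0.13 and 1.98 ± 0.13. Kif3a, of the kinesin-2 motor that builds cilia, rose in Pax7 by 0.79 ± 0.20 and had 0.18 ± 0.20 in Tw2 (adjusted p = 0.424). Kif3a was called higher in Tw2 with size factors (0.63), quantile normalization (0.49) and the trend on GC content and length removed (0.61). Kif16b, an endosome motor, rose in Pax7 by 0.88 ± 0.29 and had 0.16 ± 0.29 in Tw2 (adjusted p = 0.616); the Pax7 call was lost without the deeper Pax7_48 library (0.61) or the deeper Pax7_GM library (0.44), and Kif16b was called higher in Tw2 with that trend removed (0.55). Kif7, the ciliary regulator of Hedgehog signalling, fell with the mitotic genes, with changes of -1.8 ± 0.16 and -2.25 ± 0.16. Kif26b, known from kidney development in the mouse, changed by -1.01 ± 0.23 in Pax7 (adjusted p = 0.00372) and had 0.30 ± 0.23 in Tw2 (adjusted p = 0.251). In Tw2 it was called higher by quantile normalization (0.64), by size factors (0.74) and in a fit of the compared groups only (0.30), and stood at -0.35, not called, with the trend removed.

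In growth medium the summed level of the mitotic genes was 1.97-fold higher in Tw2_GM than in Pax7_GM, and that of the other kinesins 3.35-fold higher. Of the 48 genes, 28 were called higher in Tw2_GM and 4 lower, against 48.7% higher and 26.0% lower among all genes tested. The median log2 difference was 0.55 over the 48 genes and 0.34 over all genes. The 5 spindle and cytokinesis genes were all higher, with Ect2 at 2.41 ± 0.28, Anln at 2.23 ± 0.22, Prc1 at 1.61 ± 0.26 and Tpx2 at 1.24 ± 0.20. Racgap1 had the smallest difference of the 5, at 0.47 ± 0.13. Smc4 (3.37 ± 0.36, adjusted p = 0.000133), Kif5b (3.15 ± 0.37, adjusted p = 0.000172), Mki67 (3.12 ± 0.47, adjusted p = 0.000493) and Top2a (2.84 ± 0.33, adjusted p = 0.000178) had the largest positive differences. Nuf2 at 2.2 ± 0.36, Kif23 at 2.07 ± 0.22, Cenpc1 at 2.07 ± 0.22, Kif4 at 1.9 ± 0.19, Sgol1 at 1.76 ± 0.30 and Cenpi at 1.56 ± 0.22 were also higher, as were Ccna2 at 1.32 ± 0.17 and Ccnb1 at 1.27 ± 0.21. With size factors Ccnb1 (0.41) and Tpx2 (0.37) were not called. Of the 5 spindle and cytokinesis genes, 3 were then higher and 1 lower.

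The other cyclin B went the other way, with Ccnb2 at 36.9 and 37.1 CPM for Tw2_GM against 52.4 and 66.2 for Pax7_GM, a log2 difference of -0.66 ± 0.15 (adjusted p = 0.00431). With the trend on base composition described below taken out, the difference was -0.03 and not called. Kif1a at -2.5 ± 0.18, Kif26a at -1.29 ± 0.13 and Kif13b at -0.62 ± 0.13 were the other 3 genes lower in Tw2_GM. None of the 3 mitotic kinases passed the test, nor did Cdc20, Cenpa, Cenpt, Cenpv, Cenpn, Cenph, Cenpw, Ncapd2, Bub1b, Spc24, Kif18b, Kif20a or Kif22. The log2 differences of these 16 genes ran from -0.24 to 0.57.

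The growth medium difference followed the base composition of the transcripts, and also their length. Across the 48 genes the log2 difference had a Pearson r of -0.67 and a Spearman rho of -0.74 with the GC content of the longest coding transcript. Across 5431 genes these were -0.66 and -0.71. With transcript length (log2 length for r) they were 0.24 and 0.34 across the 48 genes and 0.39 and 0.42 across 5431 genes. Across the 39 mitotic genes they were 0.63 and 0.61 with length and -0.63 and -0.73 with GC content. The genes share the same 4 libraries, so no p is given. In the 13 mitotic genes of lowest GC content, 35.8 to 45.3%, the median difference was 1.76 and 11 were called higher. In the middle 13 it was 0.83 with 9 called higher. In the 13 of highest GC content, 50.2 to 61.6%, it was 0.11 with 2 called higher. Over all genes binned by GC content, the median difference was 2.10, 1.63 and 1.23 at median GC contents of 39.8, 42.5 and 44.4%. It was 0.92 at 46.2%, 0.54 at 48.1% and 0.11 at 50.2%. The 1.76 and 0.83 of the mitotic genes thus lay within the values of all genes at like GC content. From 52.4 to 59.6% the medians of all genes were -0.41 to -0.21, below the 0.11 of the mitotic genes. The 2 Pax7_GM libraries differed from each other along the same line. The log2 ratio of the shallower to the deeper library had an r of -0.67 and a rho of -0.75 with GC content over the 48 genes. Of these, 15 were over 1.5 times higher in the shallower library and 0 over 1.5 times higher in the deeper one. Over all genes the SD of the log2 ratio of the 2 libraries was 0.50 in Pax7_GM and 0.17 to 0.20 in the other groups. The same ratio for Tw2_GM had an r of 0.44 and a rho of 0.56 with GC content over the 48 genes. The relation was not confined to growth medium. The log2 difference between Tw2_48 and Pax7_48 had an r and a rho of -0.53 over the 48 genes, and -0.59 and -0.64 over 5431 genes.

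**Figure D5:**
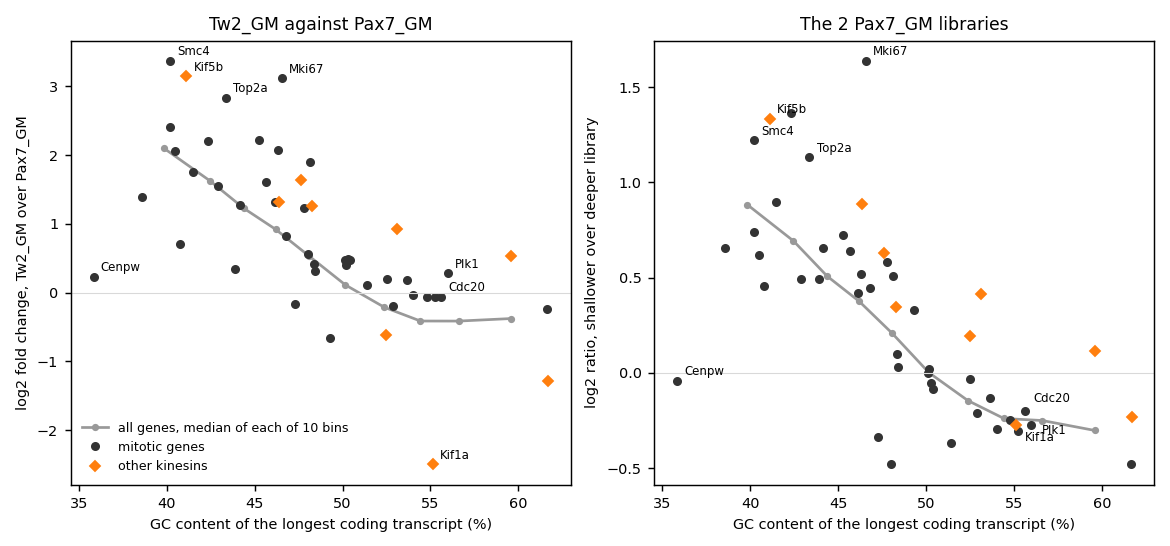
Left, log2 difference between Tw2_GM and Pax7_GM (y axis) against the GC content of the longest coding transcript (x axis, percent); right, log2 ratio of the shallower to the deeper Pax7_GM library against the same axis. Black points are the 39 mitotic genes, orange diamonds the 9 other kinesins, and the grey line the median of all genes in each of 10 equal bins of GC content; both panels slope downward, with r of -0.67 in each over the 48 genes.

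The growth medium counts also moved with the scaling. With a smooth trend on GC content and transcript length taken out of each library, 38 genes were higher and 5 lower in Tw2_GM, against 63.9% and 14.1% of all genes, and Aurka, Aurkb and Plk1 were then among the higher genes. With size factors in place of CPM, which shift the median of all genes by -0.84, 17 were higher and 20 lower, against 25.5% and 53.9% of all genes, and all 3 kinases were then among the lower genes. Quantile normalization, with a shift of -0.48, gave 20 higher and 14 lower, against 36.2% and 40.6%. Under these the direction of the median of the 48 genes was not stable, at 0.93 with the trend out, -0.27 with size factors and 0.10 with quantile normalization. Whether the base composition, the transcript length or the scaling accounts for the difference was not tested. The lower counts at 48 in each lineage were 41 and 40 under each of these 3 settings.

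At 48 the summed mitotic level was 1.22-fold higher in Tw2_48 than in Pax7_48, against 1.97-fold for Tw2_GM over Pax7_GM. Over the 39 mitotic genes the median log2 difference was 0.48 in growth medium and -0.09 at 48. Whether the lineages were closer at 48 depended on the scaling. These medians were -0.38 and -0.59 with size factors, and 0.004 and 0.13 with quantile normalization. Of the 48 genes 11 were higher in Tw2_48 and 11 lower, against 43.3% higher and 22.1% lower among all genes tested, and the median difference was -0.04 against 0.27 for all genes. All 3 kinases were lower in Tw2_48, with Aurka at -0.92 ± 0.15 (adjusted p = 0.00181), Aurkb at -0.67 ± 0.12 (adjusted p = 0.00262) and Plk1 at -0.52 ± 0.19 (adjusted p = 0.0404). These rest on few reads: Aurkb had 10 and 6 reads in the Tw2_48 libraries and 19 and 12 in the Pax7_48 libraries. Cenpv, at 4 and 3.51 CPM for Tw2_48 against 14.5 and 14.8 for Pax7_48, was lower by a log2 difference of -1.72 ± 0.17. Kif26a was also lower, at -1.88 ± 0.13.

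Kif5b (2.29 ± 0.37) and Kif26b (2.24 ± 0.23) were the kinesins with the largest excess in Tw2_48. Among the mitotic genes Smc4 (1.96 ± 0.36), Ect2 (1.41 ± 0.28) and Prc1 (1.13 ± 0.26) were higher there. With a pseudocount of 5 in place of 1, 6 genes were called lower in Tw2_48. With size factors it was 24 of the 48, where 2633 of all 5452 genes were lower. Without the deeper Pax7_48 library 7 were lower, and without the deeper Tw2_48 library 5. Plk1 lost its call under 8 alternatives and was 0.13 with the trend on base composition out, while Aurkb lost its call under the same trend (-0.07) and with the pseudocount of 5 (-0.23). Prc1 lost its call with size factors (0.59) and without the shallower Pax7_48 library (0.79).

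The change itself differed between the lineages for 19 of the 48 genes. In the test of the difference of the 2 changes, 16 mitotic genes fell further in Tw2 and 3 kinesins, Kif1a, Kif26b and Kif13b, changed in a more positive direction in Tw2, against 9.01% and 9.72% of all genes tested. The median difference was -0.64 over the 48 genes and -0.22 over all genes. Sgol1 (-2.46 ± 0.42, adjusted p = 0.00634), Mki67 (-2.39 ± 0.66, adjusted p = 0.0411) and Top2a (-2.33 ± 0.47, adjusted p = 0.0128) had the largest excess of the fall in Tw2. Of the 16 genes, 11 were higher in Tw2_GM than in Pax7_GM and not called different at 48, among them Mki67, Top2a, Nuf2, Anln, Ccna2 and Ccnb1. The other 5, Aurka, Aurkb, Cenpv, Kif18b and Kif20a, were not called different in growth medium and were lower in Tw2_48.

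The count of 16 genes with the further fall in Tw2 was sensitive to single libraries. It was 34 without the shallower Pax7_GM library and 24 without the deeper one, and 7 to 10 without any 1 of the other 6 libraries. Size factors gave 10 and quantile normalization 9, where 225 and 453 of all 5452 genes were lower. With the trend on GC content and length removed, the 16 genes kept their calls. Others were then called as well, among them Plk1 (-1.17), Ncapd2 (-0.90) and Kif22 (-0.87). Of the 19 genes, 8 were called under all 16 alternatives: Anln, Ccna2, Cenpv, Kif23, Kif4, Sgol1 and Tpx2 with the further fall in Tw2, and Kif1a in the other direction. Of the 3 kinesins in that direction 1 was called without the deeper or the shallower Tw2_48 library or the shallower Tw2_GM library.

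Other genes of the programme were listed under the same fold and CPM minimums as the 48, so that their counts carry the same limit. Of 66 other mitotic genes in the table, 55 were lower and 1 higher in Pax7, against 40.5% lower and 38.8% higher among all genes tested. In Tw2, 64 were lower and 0 higher, against 48.9% and 35.3%. The median log2 changes were -3.27 and -3.91. Melk, a kinase of proliferating cells, had -5.59 ± 0.14 in Tw2, Spag5, the spindle protein astrin, -5.58 ± 0.12, and Birc5, survivin of the passenger complex, -4.54 ± 0.14 in Pax7. In growth medium 43 of the 66 were higher in Tw2_GM and 4 lower, against 48.7% and 26.0% of all genes. The counts moved with the setting, as did those of all genes. They were 19 higher and 28 lower under size factors, against 25.5% and 53.9% of all genes. Quantile normalization gave 22 and 13, against 36.2% and 40.6%. With the trend on GC content and length removed they were 57 and 3, against 63.9% and 14.1%. Of 45 replication and G1/S genes 43 were lower and 1 higher in Pax7, and 44 lower and 1 higher in Tw2, with Mcm3, of the replicative helicase, at -4.6 ± 0.15 and -5.91 ± 0.15. The gene that rose was E2f2, at 1.91 ± 0.13 and 2.27 ± 0.13. In growth medium 15 of these 45 were higher in Tw2_GM and 4 lower, with a smaller share higher than among all genes (48.7%). The count was 4 higher and 31 lower under size factors, 5 and 18 under quantile normalization, and 33 and 2 with the trend removed. The shares over all genes under each setting are those just given for the 66 genes.

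Among 11 listed transcription factors of the programme, 9 were lower and 1 higher in Pax7, and 10 lower and 1 higher in Tw2. The shares over all genes tested were 40.5% lower and 38.8% higher in Pax7, and 48.9% and 35.3% in Tw2. Size factors left 8 lower in each lineage, quantile normalization 8 in Pax7 and 9 in Tw2, and 9 were lower in each with the trend on GC content and length removed, where 0 were higher in Tw2. Mybl2, the gene of B-Myb, stood at 51.3 and 51.9 CPM for Tw2_GM, 54.6 and 37.4 for Pax7_GM, 0.583 and 0.213 for Tw2_48 and 1.22 and 0.917 for Pax7_48. Its log2 changes were -4.49 ± 0.21 in Pax7 and -5.25 ± 0.21 in Tw2. Foxm1 had changes of -3.5 ± 0.13 and -4.24 ± 0.13, and Nfya, a subunit of NF-Y, had changes of -1.7 ± 0.13 and -1.86 ± 0.13. E2f7 had changes of -4.17 ± 0.12 and -5.19 ± 0.12. E2f8 had changes of -2.07 ± 0.14 in Pax7 and -0.72 ± 0.14 in Tw2, and the difference of the 2 changes was 1.34 ± 0.19 (adjusted p = 0.00284). Lin37, a subunit of DREAM, rose by 0.69 ± 0.19 and 0.78 ± 0.19.

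A mixed list of 10 genes of G1 and cell cycle exit held inhibitors of cyclin-dependent kinases, Rb1, the D cyclins and Gadd45 genes. Of the 10, 7 were higher and 3 lower in Pax7, and 5 higher and 3 lower in Tw2. Among all genes tested, 38.8% were higher and 40.5% lower in Pax7, and 35.3% and 48.9% in Tw2. The Tw2 count was 7 higher and 3 lower with size factors or quantile normalization, and 5 and 5 with the same trend removed. Cdkn1c, the inhibitor p57, stood at 6.49 and 5.22 CPM for Tw2_GM, 17.6 and 11.2 for Pax7_GM, 1431 and 1416 for Tw2_48 and 1141 and 1291 for Pax7_48. It rose by 6.33 ± 0.21 and 7.71 ± 0.21. Cdkn1a, the inhibitor p21, rose by 2.07 ± 0.14 and 3.2 ± 0.14. The inhibitor gene Cdkn2a fell, by -0.69 ± 0.14 and -1.45 ± 0.14. Ccnd1, cyclin D1, had changes of -4.18 ± 0.13 and -6.33 ± 0.13. Ccnd2 had -1.41 ± 0.15 and -1.82 ± 0.15, while Ccnd3 rose by 1.39 ± 0.16 and 1.1 ± 0.16. Rb1, the retinoblastoma protein, rose by 1.83 ± 0.28 and 2.49 ± 0.28. In growth medium 1 of the 10 was higher in Tw2_GM and 6 lower, against 48.7% and 26.0% of all genes. With the trend removed 5 were higher and 1 lower, against 63.9% and 14.1%. With size factors 0 were higher and 9 lower, against 25.5% and 53.9%.

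Cell type markers moved with the same contrast. Of 9 myogenic markers 5 were analysed (Pax7, Myog, Des, Cdh15 and Ckm), and their summed level was 1442 to 2338 CPM in growth medium and 8724 to 9382 CPM at 48. Pax7 was at 109 to 117 CPM in every growth medium library of both lineages and at 9.58 to 13.0 CPM at 48, and the growth medium levels of the lineages did not differ past the test (log2 difference -0.05, adjusted p = 0.738). Myog, the factor of myoblast differentiation, rose from 439 and 351 CPM for Pax7_GM to 2491 and 2247 for Pax7_48. In Tw2 it rose from 110 and 89.1 CPM to 3697 and 3859. Myog was thus lower in Tw2_GM than in Pax7_GM (log2 difference -1.98, limma adjusted p = 5.26e-05), as was Ckm (-1.04, adjusted p = 0.000842). Des (-0.36, adjusted p = 0.0719) and Cdh15 (-0.17, adjusted p = 0.287) were not called different there. The summed level of 4 of 10 fibroblast markers was 917 to 999 CPM in growth medium and 204 to 431 CPM at 48. In Tw2_GM nearly all of it was Col3a1, at 987 and 940 CPM, which fell in both lineages. Col1a2 held 424 and 387 CPM for Pax7_GM against 3.61 and 3.28 for Tw2_GM, and in Tw2 it rose, to 6.84 and 24.1 CPM (log2 change 1.66, adjusted p = 0.00699). Col1a1 had a log2 change of 1.04 in Tw2 (limma adjusted p = 0.213). Prrx1 held 29.5 and 39.7 CPM for Pax7_GM against 4.68 and 2.39 for Tw2_GM, and fell in Tw2 (log2 change -0.87, adjusted p = 0.0102). In Pax7, Prrx1 (-0.51, adjusted p = 0.0895), Col1a2 (-0.65, adjusted p = 0.201) and Col1a1 (0.03, adjusted p = 0.97) were not called at 48. The summed level of 4 of 5 pericyte and smooth muscle markers was 774 to 908 CPM in growth medium and 5168 to 8666 CPM at 48. The rise was that of Acta2 alone, which held 542 to 769 CPM in growth medium and 5139 to 8616 CPM at 48. The other 3 fell in both lineages: Mcam by log2 changes of -2.50 in Pax7 and -2.30 in Tw2, Cspg4 by -1.05 and -1.70, and Rgs5 from 11.4 to 62.1 CPM in growth medium to between 0 and 0.51 CPM at 48. Of 5 immune markers Itgam alone was analysed, at 0 in both Tw2_GM libraries and 11.9 to 22.8 CPM at 48. No endothelial or glial marker was analysed here. The part of these in the changes of the 48 genes was not tested.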

How the data were processed

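The authors deposited 1 table of 5457 genes with 4 group means in CPM and 3 log2 fold changes against Tw2_GM, each equal to log2((mean + 1)/(Tw2_GM mean + 1)) to within 1.4e-11, and a status column that holds 1 for every gene. TopHat2 2.0.0, DESeq2 1.6.3 and the mouse genome GRCm38 (mm10) are named, with no role, per the submitters' processing notes. The counting tool, the annotation and the use of strand are not given in the sources used here. Every deposited mean was decomposed into the whole reads of its 2 libraries, which gave 1 solution for 5452 genes and all 48 described here (Myh3, Actc1, Mylpf, H19 and Acta1 could not be solved). The implied library sizes, 5.18 to 13.7 M reads, are not whole numbers and are taken as effective sizes. At these sizes 3 reads, the limit that a count of 0 allows, come to 0.218 to 0.579 CPM, for counting error only. The 2 libraries of a group differed beyond counting error in all 4 groups (chi-square per degree of freedom 3.95 to 21.1), so they were not merged as 1 library, which does not show that they are separate mice or cultures.

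Since CPM are not counts, log2(CPM + 1) was fitted with limma 3.58.1 (R 4.3.3) over all 8 libraries with 4 group means, eBayes without trend, and Benjamini-Hochberg adjustment over 5452 genes within each comparison. The spread of each gene is pooled over groups (4 residual and 4.02 prior degrees of freedom), and the errors printed after ± are limma's standard errors, with n = 2 libraries a group. The pseudocount of 1 understates the change of genes near 1 CPM. The solver and the fit were tested on simulated data. GC content and length came from the longest coding transcript in GENCODE M21 for 5431 genes. Sequences are from RefSeq.

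The 48 genes and the gene lists were chosen with earlier results of these data known. Values in every library are given for Mki67, Top2a, Ccnb1, Aurkb and Plk1, and for the 2 genes of each role with the largest difference in growth medium and the 2 with the largest change at 48. From the other lists up to 4 called genes with the largest change may be named, and any listed transcription factor or gene of G1 and cell cycle exit. The chromosome-structure genes are Ncapd2, Ncapd3, Ncaph, Smc4 and Top2a. Alternatives were 2 other pseudocounts (0.25 and 5), a minimum mean of 10 CPM, size factors, quantile normalization, removal of a trend on GC content and length, eBayes with trend, only the compared groups, and leaving out each library.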

Additional observations from a re-analysis of the deposited data

Results flagged for a closer look

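The change from growth medium to 48 differed between Tw2 and Pax7, by the test of the difference of the 2 log2 changes (Tw2 minus Pax7, adjusted p under 0.05), in 19 of the 48 genes. Among genes of the kinetochore and centromere it was -2.46 for Sgol1, -2.05 for Nuf2, -1.57 for Cenpi and -1.48 for Cenpv. In the mitotic kinesins it was -1.96 for Kif4, -1.69 for Kif23, -0.98 for Kif20a (-0.977) and -0.93 for Kif18b (-0.926). The kinases had -1.03 for Aurka and -0.87 for Aurkb (-0.869), and the cyclins -1.39 for Ccna2 and -1.27 for Ccnb1. The values were -2.39 for Mki67, -2.33 for Top2a, -2.02 for Anln and -1.67 for Tpx2.

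The difference was positive for 3 transport and signalling kinesins, 2.19 for Kif1a, 1.32 for Kif26b and 0.99 for Kif13b (0.991). The Pax7 change in each rests on the Pax7_GM libraries, whose log2 ratio to each other had an SD of 0.50 over all genes, against 0.17 to 0.20 in the other groups; its part in these differences was not tested. Of the 19 genes, 8 were called under all 16 alternatives and 11 lost the call under at least 1.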

How the results depend on the processing

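The calls of lower genes at 48 were stable under the 16 alternatives, at 41 in Pax7 and 40 in Tw2 except with a minimum mean of 10 CPM, where fewer genes were tested and 39 and 38 were lower. Of the 48 genes, 32 met the CPM minimum in growth medium libraries only, so the stability of these calls carries the limit set by the listing. Over all genes tested in the main fit, 40.5% in Pax7 and 48.9% in Tw2 were lower at 48. In growth medium, size factors gave 17 genes higher and 20 lower in Tw2_GM, against 25.5% and 53.9% of all genes, and a median of -0.27. Quantile normalization gave 14 lower, against 40.6%. At 48, size factors gave 5 higher and 24 lower in Tw2_48, against 943 and 2633 of all 5452 genes. The pseudocount of 5 gave 6 lower, and the median of the 48 genes turned to 0.14 with quantile normalization. For the difference of changes, size factors gave 10 lower and quantile normalization 9, against 225 and 453 of all 5452 genes. The main fit gave 16, against 491 of all genes. With the trend on GC content and length removed, Kif26b in Tw2 turned to -0.35 and Plk1 at 48 to 0.13, while Kif26b in Tw2 was called higher with size factors (0.74), quantile normalization (0.64) and the compared groups only (0.30). The causes were not tested.

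Leaving out 1 library at a time gave 22 to 29 higher and 4 to 5 lower in growth medium. At 48 it gave 9 to 15 higher and 5 to 14 lower, and a median of -0.0874 to 0.0562. For the difference of changes it gave 1 to 3 higher and 7 to 34 lower. In such a fit the lone library of a group is assumed to vary like the other groups.

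No paired analysis was possible because the deposited means carry no replicate numbers. Depth limits the 48 levels: at 1 CPM a gene had 5.18 to 13.7 reads, by library.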
